A study of Homo sapiens with 8 samples.

Results

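The glypicans and syndecans are the cell surface heparan sulfate proteoglycans, and 10 genes encode them in human, GPC1 to GPC6 and SDC1 to SDC4. They were taken by symbol from the deposited transcript estimates and the table of normalized counts, and all 10 were found among the 58217 genes with a matched transcript. Libraries were prepared from oligodendrocyte progenitor cells (OPCs) differentiated from the H9 line, which is an established line of human embryonic stem cells, without SOX10 overexpression. The cells were cultured on Matrigel, a basement membrane extract (replicates 2 and 3), on VN, recombinant vitronectin (replicates 1 to 3), or on VNP2, a vitronectin-derived peptide carried by a mussel adhesive protein (replicates 1 to 3), in the same OPC medium. All libraries came from 1 cell line, and nothing in the labels says that they came from separate differentiations, so the p-values measure only the spread between these samples, which may be technical.

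Each of these proteins is a core protein that carries long sulfated sugar chains, heparan sulfate, which bind growth factors, morphogens and matrix proteins, vitronectin among them. Glypicans are held in the outer leaflet of the membrane by a lipid anchor, whereas syndecans cross the membrane and connect through short cytoplasmic tails to the cytoskeleton. In the nervous system members of both families take part in growth factor signalling in progenitors, axon growth and synapse formation.

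The 8 libraries held 37997896 to 39429453 estimated counts each. VN replicate 1 stood apart from the other VN libraries, with a median chi-square per gene of 3.23 and 3.93 against them, where they had 0.829 between themselves and sampling noise alone gives 0.455. Among markers of the oligodendrocyte lineage, OLIG2 lay between 39.96 and 54.6 TPM (the level per transcript length, as Salmon gives it) and PDGFRA between 3.67 and 4.98 TPM, whereas SOX10 was at 0 in both Matrigel libraries and reached at most 0.0778 TPM elsewhere. Normalized counts are counts corrected for library size and for differences between libraries in the average transcript length of a gene. They are not levels per length, so they are compared between libraries and TPM between genes. TPM are scaled only to a fixed total per library, and small differences in TPM between substrates are not read. GPC1, for example, had mean normalized counts of 4069 on Matrigel and 4076 on VNP2, with mean TPM of 52.6 and 55.2. Changes are log2 fold changes with their standard error (SE) from 1 edgeR quasi-likelihood fit of 18201 genes, and a change was called where the two-sided p, adjusted over all of them by the Benjamini-Hochberg method, was under 0.05.

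Per length, GPC3 was the highest of the 10 in every library, at 488 to 540 TPM. SDC2 came next, followed by GPC4, in every library, at 228 to 361 and 123 to 265 TPM. These 3 genes supplied 37.6%, 24.5% and 18.4% of the summed TPM of both families on Matrigel, and 43.6%, 20.4% and 10.9% on VNP2.

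SDC3 came after these in every library, between 67.3 and 80.1 TPM. GPC2, GPC1 and GPC6 followed within 51.7 to 70.7 TPM, and their order differed between substrates. GPC6 was above GPC2 in both Matrigel libraries and below it in every library on VN and VNP2, and the libraries of GPC1 and GPC6 overlapped on VNP2. SDC1 lay between 28.2 and 31.9 TPM, SDC4 between 4.41 and 9.24 TPM, and GPC5 between 0.0896 and 0.619 TPM.

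**Figure D1:**
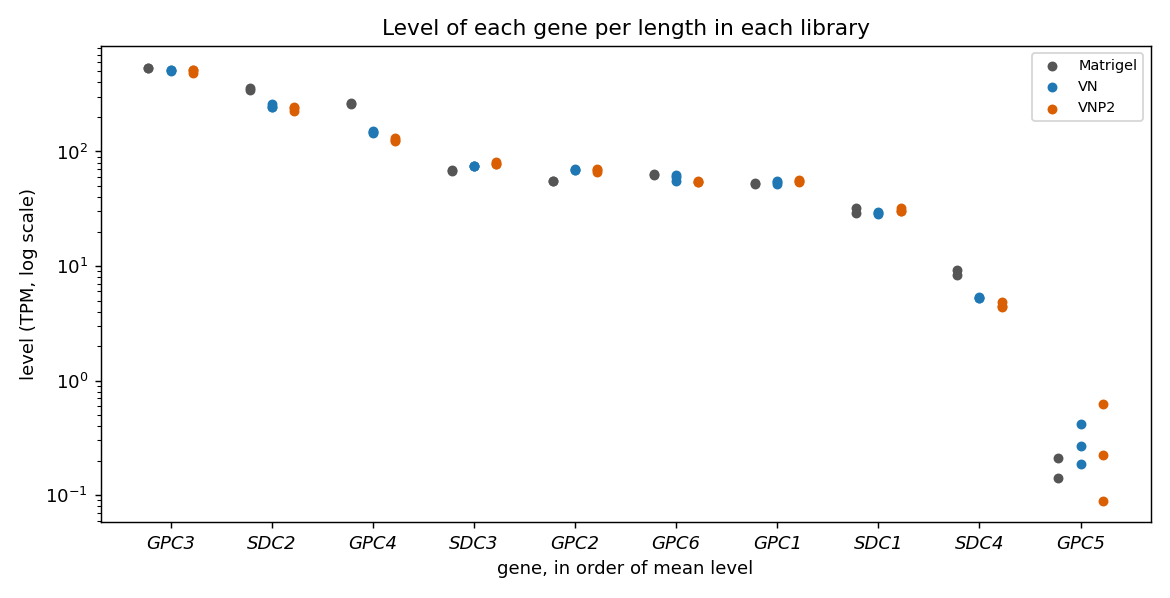
Level of each glypican and syndecan gene in TPM on a log axis, with genes in order of their mean level and 1 point per library (2 Matrigel, 3 VN, 3 VNP2). GPC3, SDC2 and GPC4 lie above the other members in every library, and GPC5 lies below 1 TPM.

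The glypicans summed to 972 and 973 TPM on Matrigel, to 833 to 845 on VN and to 792 to 828 on VNP2. Without GPC4, the other 5 summed to 708 and 710 TPM on Matrigel, 688 to 696 on VN and 668 to 697 on VNP2. The syndecans summed to 450 and 467 TPM on Matrigel, 351 to 370 on VN and 340 to 359 on VNP2. Both family sums were higher in each Matrigel library than in any other, and most of that difference in TPM lay in GPC4 and in SDC2. The small differences in the sum without GPC4 are not read, and GPC3 and GPC6 were lower than on Matrigel in normalized counts, as given below. In bulk RNA, fewer cells of a type and less RNA per cell cannot be told apart, for these sums and for each gene below.

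Across the 3 substrates, 7 of the 10 members were called (GPC2, GPC3, GPC4, GPC6, SDC2, SDC3 and SDC4), where 19.3% of all tested genes were. On VN against Matrigel 5 members were lower, against 9.6% of all genes, and 1 was higher, against 5.66%. On VNP2 against Matrigel the same 5 were lower, against 9.13%, and 2 were higher, against 7.44%. Between VNP2 and VN 1 member was lower, against 2.01%, and none was higher, against 3.09%. At an unadjusted p under 0.05 edgeR gave 3 lower members and 1 higher, and DESeq2 called 1 lower and 0 higher. The comparisons with Matrigel share its 2 libraries. The median log2 fold change of the 10 members was -0.16 on VN and -0.10 on VNP2, where that of all genes was 0.00 in both.

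Every library of 1 substrate lay on the same side of every library of the other for 8 members on VN against Matrigel, for 7 on VNP2 against Matrigel and for 5 on VNP2 against VN. Among all genes the same was true of 44.4%, 48.1% and 23.6%.

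**Figure D2:**
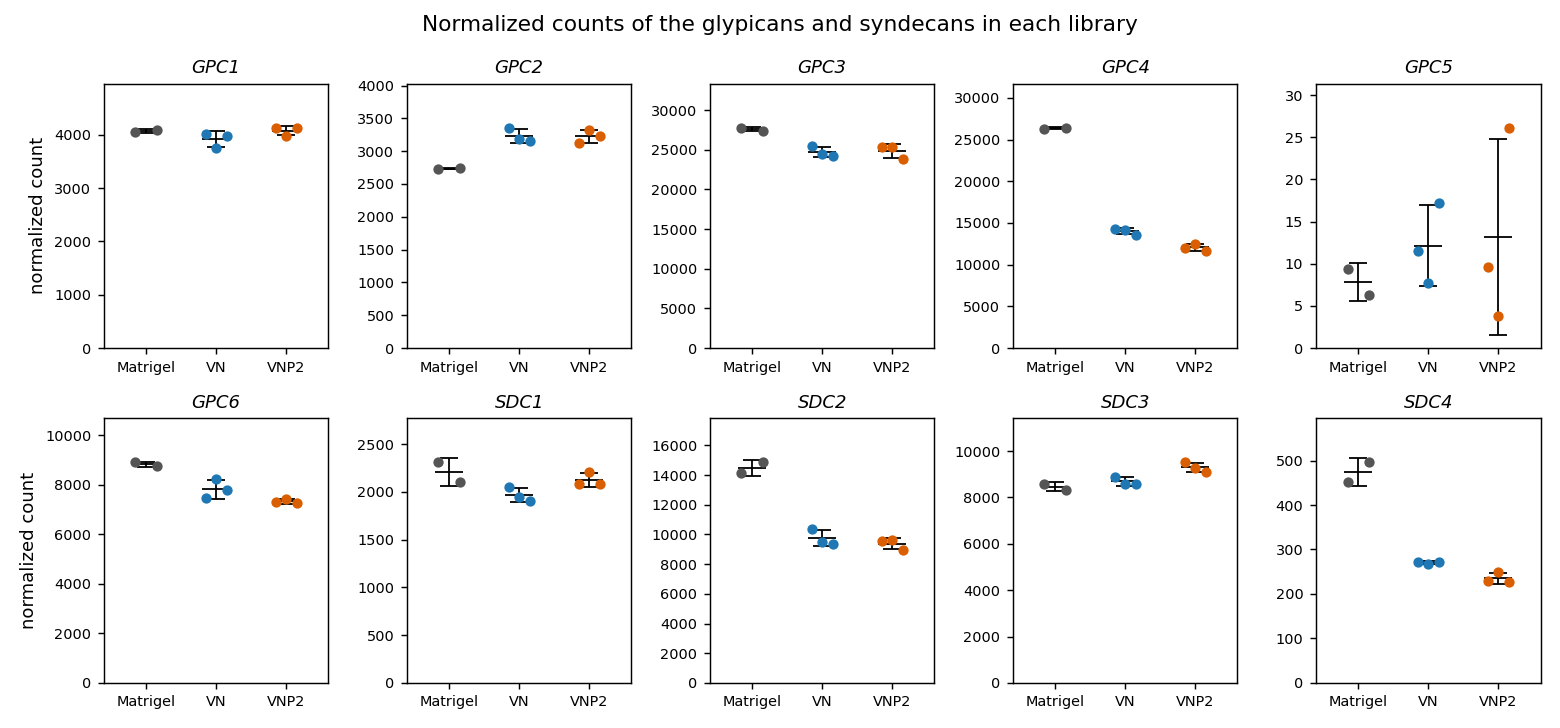
Normalized counts of the 10 genes in each library, with points for libraries (2 Matrigel, 3 VN, 3 VNP2), the horizontal bar for the mean and the whiskers for the SD, on axes from 0. GPC4, SDC2 and SDC4 are highest in both Matrigel libraries, while GPC2 is lowest there.

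GPC4, a glypican released by astrocytes that promotes formation of excitatory synapses and a regulator of growth factor signalling in progenitors, changed most in standard errors. It lies on the minus strand of chromosome X at 133300103 to 133415490 (GRCh38), as a single annotated transcript of 4959 bases. Its normalized counts were 26268 and 26413 in the Matrigel libraries, 14294, 14141 and 13588 in those from VN, and 11987, 12499 and 11697 on VNP2. No substrate overlapped with another, and VNP2 was the lowest of the 3. GPC4 was 1.88-fold lower on VN than on Matrigel (log2 fold change -0.91, SE 0.0370, adjusted p = 2.04e-07) and 2.18-fold lower on VNP2 (-1.13, SE 0.0370, adjusted p = 4.38e-08). Among genes lower than on Matrigel, 14 had a p this small or smaller on VN and 8 on VNP2, GPC4 included. It was also lower on VNP2 than on VN (-0.22, SE 0.0338, adjusted p = 0.00455).

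GPC3, a glypican that restrains growth and hedgehog signalling, is the neighbour of GPC4 on chromosome X, on the same strand at 133535745 to 133985895, with 120254 bases between them. It had 27783 and 27399 normalized counts in the Matrigel libraries, 25425, 24515 and 24194 in those from VN, and 25333, 25334 and 23827 in those from VNP2. Both Matrigel libraries were above all others, by a small margin. GPC3 fell by 0.16 on the log2 scale on VN (SE 0.0372, adjusted p = 0.0169) and by 0.15 on VNP2 (SE 0.0372, adjusted p = 0.0184). Leaving out either Matrigel library ended both calls, with adjusted p of 0.0834 to 0.139. The call on VN was also lost without VN replicate 2 (0.0503) or 3 (0.0587), and that on VNP2 without VNP2 replicate 3 (0.0781).

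GPC6, another glypican that astrocytes release and that promotes excitatory synapses, had 8908 and 8758 normalized counts in the Matrigel libraries, 7464, 8221 and 7787 in those from VN, and 7323, 7442 and 7251 in those from VNP2. Its libraries did not overlap between any of the substrates. It fell by 0.17 on VN (SE 0.0423, adjusted p = 0.0196) and by 0.27 on VNP2 (SE 0.0423, adjusted p = 0.0016). The call on VN was lost without either Matrigel library (adjusted p = 0.144 and 0.0920), without VN replicate 3 (0.0587), without a length offset (0.103) and in a fit of the Matrigel and VN libraries alone (0.0533). Without VN replicate 1 the difference between VNP2 and VN was called (-0.12, adjusted p = 0.0374).

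GPC2, a glypican of the developing nervous system found on growing axons, went the other way. It is on the minus strand of chromosome 7 at 100169606 to 100177372. GPC2 had 2726 and 2743 normalized counts in the Matrigel libraries, 3357, 3187 and 3160 in those from VN, and 3120, 3324 and 3237 in those from VNP2. Both Matrigel libraries were below all 6 others. It rose by a log2 fold change of 0.24 on VN (SE 0.0453, adjusted p = 0.00553) and of 0.24 on VNP2 (SE 0.0452, adjusted p = 0.00463). Without Matrigel replicate 2 its adjusted p on VN was 0.0506.

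GPC1, a glypican of neurons, had 4043 and 4095 normalized counts in the Matrigel libraries, 4019, 3745 and 3975 in those from VN, and 4123, 3974 and 4130 in those from VNP2. Its log2 fold changes were -0.06 on VN (95% interval -0.15 to 0.04) and 0.00 on VNP2 (95% interval -0.09 to 0.10). Neither passed the test, with adjusted p of 0.416 and 0.979.

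GPC5, a glypican that can enhance hedgehog signalling, was close to the limit of detection, with 5 to 18 estimated counts in a library. Its normalized counts were 9.40 and 6.26 in the Matrigel libraries, 11.5, 7.70 and 17.3 in those from VN, and 9.61, 3.79 and 26.1 in those from VNP2. The libraries overlapped between all substrates, and the SE of its log2 fold changes, 0.632 to 0.712, left no difference detectable at this depth. GPC5 and GPC6 lie next to each other on the plus strand of chromosome 13, with 353159 bases between them, at levels of under 1 TPM and above 54 TPM.

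SDC2, a syndecan of neural and mesenchymal cells that takes part in dendritic spine formation, was the more abundant of the syndecans. Its normalized counts were 14110 and 14852 in the Matrigel libraries, 10361, 9469 and 9375 in those from VN, and 9536, 9622 and 8935 in those from VNP2. Matrigel stood above both other substrates, which overlapped each other. SDC2 was 1.49-fold lower on VN (log2 fold change -0.57, SE 0.0509, adjusted p = 4.33e-05) and 1.55-fold lower on VNP2 (-0.63, SE 0.0508, adjusted p = 1.48e-05), and the difference between VNP2 and VN was -0.06 (95% interval -0.16 to 0.05).

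SDC4, the syndecan of focal adhesions that binds protein kinase C alpha, lies on the minus strand of chromosome 20 at 45325288 to 45348424, also with a single annotated transcript. It had 452 and 496 normalized counts in the Matrigel libraries, 272, 267 and 272 in those from VN, and 229, 249 and 226 in those from VNP2. The 3 substrates did not overlap. SDC4 was 1.75-fold lower on VN (log2 fold change -0.81, SE 0.0869, adjusted p = 0.00016) and 2.02-fold lower on VNP2 (-1.01, SE 0.0876, adjusted p = 2.41e-05). The step from VN to VNP2, -0.20 (SE 0.0822), had an adjusted p of 0.206.

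SDC3, the syndecan typical of neural cells and a receptor of pleiotrophin, had 8600 and 8322 normalized counts in the Matrigel libraries, 8901, 8600 and 8574 in those from VN, and 9510, 9264 and 9104 in those from VNP2. All VNP2 libraries were above all others, and VN overlapped with Matrigel. It rose on VNP2 against Matrigel by a log2 fold change of 0.14 (SE 0.0363, adjusted p = 0.0283), and on VN the value was 0.04 (SE 0.0362, adjusted p = 0.522). The call on VNP2 was lost without either Matrigel library (adjusted p = 0.0689 and 0.204), without VNP2 replicate 1 (0.0916) or 2 (0.0683), and without a length offset (0.0965). Without VN replicate 1 the difference between VNP2 and VN, 0.12, was called (adjusted p = 0.0398).

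SDC1, the syndecan of epithelia and plasma cells, had 2308 and 2102 normalized counts in the Matrigel libraries, 2048, 1947 and 1906 in those from VN, and 2083, 2206 and 2079 in those from VNP2. VN was below both other substrates in every library. No comparison was called for SDC1 in the fit of all libraries (VN against Matrigel -0.16, SE 0.0567, adjusted p = 0.0787), and the fit without VN replicate 1 gave 0.0414.

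**Figure D3:**
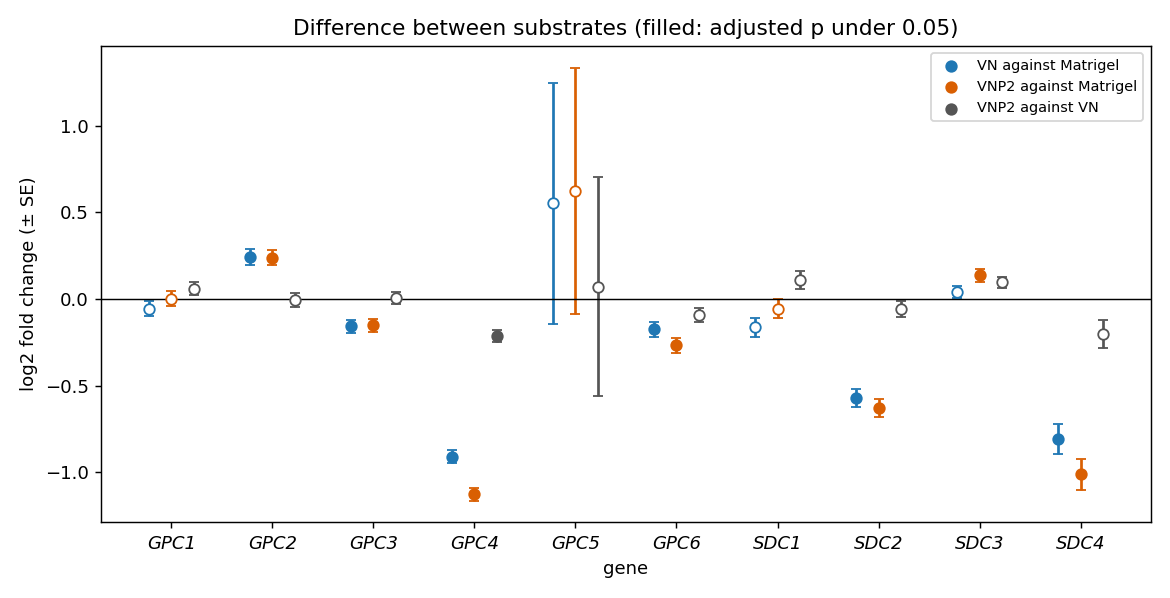
Log2 fold change of each member for the 3 pairs of substrates (colours), with whiskers for the SE and filled points for an adjusted p under 0.05 over all 18201 genes. GPC4, SDC4 and SDC2 have the largest called changes from Matrigel, and only GPC4 is filled for VNP2 against VN.

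Markers of the oligodendrocyte lineage and of other cell types differed between the substrates too. The 10 markers of the lineage summed to 134 to 135 TPM on Matrigel, 164 to 169 on VN and 165 to 174 on VNP2. Of the 7 tested, 2 rose and 0 fell on VN, while 5 rose and 1 fell on VNP2. The 10 markers of mesenchymal cells summed to 1022 to 1057 TPM on Matrigel, 716 to 754 on VN and 628 to 652 on VNP2, and none was at 0 in every library. Most of that difference lay in TAGLN, a gene of contractile cells, which had 484.5 to 510 TPM on Matrigel, 117 to 125 on VN and 92.3 to 123 on VNP2. The other 9 summed to 538 to 546, 593 to 630 and 515 to 549 TPM, and differences this small in TPM are not read between substrates. Among the 9, COL1A1 was at 151 and 168 TPM on Matrigel, 111 to 126 on VN and 61.0 to 64.9 on VNP2. LUM went the other way, with 101 TPM in both Matrigel libraries, 137 to 172 on VN and 118 to 142 on VNP2. Single mesenchymal markers went both ways (3 rose and 4 fell on VN, 5 rose and 4 fell on VNP2). Among all tested genes 5.66% rose and 9.6% fell on VN, and 7.44% rose and 9.13% fell on VNP2.

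The 5 markers of astrocytes, cells that release GPC4 and GPC6, summed to 192 to 202 TPM on Matrigel, 115 to 125 on VN and 133.5 to 143.5 on VNP2. Nearly all of it was GJA1, a gap junction gene, and the other 4 together lay between 3.45 and 4.93 TPM. GFAP, AQP4 and ALDH1L1 were below 1 TPM in every library, though none was at 0 in every one. The 8 markers of radial glia summed to 3606 to 3678, 3090 to 3151 and 3379 to 3430 TPM, mostly through VIM, which encodes an intermediate filament. Without VIM they summed to 1111 to 1112, 1143 to 1192 and 1135 to 1175 TPM, differences too small to be read between substrates in TPM.

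The 6 markers of epithelial cells summed to 161 to 172, 93.8 to 95.6 and 104 to 108 TPM, with 3 of them below 1 TPM everywhere. On VN 3 fell and on VNP2 5, where 9.6% and 9.13% of all tested genes fell. The 5 on VNP2 include markers below 1 TPM. The 8 markers of neurons summed to 445 to 459, 545 to 582 and 573 to 608 TPM. Of these 5 rose on VN and 5 on VNP2, where 5.66% and 7.44% of all tested genes rose. GAP43 fell on VN, and RBFOX3 stayed below 1 TPM. The part of these cell types in the changes of the proteoglycan genes was not tested.

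Promoters are given for GPC4 and SDC4, which fell by the most, and for GPC2 and SDC3, which rose. The sequences are the 250 bases before the start annotated by RefSeq (GRCh38.p14), read 5′ to 3′ in the direction of the gene, with every match to the GC box GGGCGG on either strand in capitals. Entries were matched by symbol for 8 of the 10 members, all but GPC3 and SDC2. GPC4 is at chrX:133415490-133415739, SDC4 at chr20:45348425-45348674, GPC2 at chr7:100177382-100177631 and SDC3 at chr1:30908759-30909008, all on the minus strand.
GPC4: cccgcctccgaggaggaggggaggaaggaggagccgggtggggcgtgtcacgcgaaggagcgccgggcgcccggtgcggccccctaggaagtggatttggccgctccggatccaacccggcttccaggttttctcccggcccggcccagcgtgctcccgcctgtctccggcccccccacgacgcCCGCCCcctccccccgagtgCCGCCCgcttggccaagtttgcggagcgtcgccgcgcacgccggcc
SDC4: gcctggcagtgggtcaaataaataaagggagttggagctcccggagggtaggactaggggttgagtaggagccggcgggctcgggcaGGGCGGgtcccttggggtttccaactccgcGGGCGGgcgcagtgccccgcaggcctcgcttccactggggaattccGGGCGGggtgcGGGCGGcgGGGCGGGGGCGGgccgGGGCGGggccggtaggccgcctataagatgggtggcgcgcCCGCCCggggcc
GPC2: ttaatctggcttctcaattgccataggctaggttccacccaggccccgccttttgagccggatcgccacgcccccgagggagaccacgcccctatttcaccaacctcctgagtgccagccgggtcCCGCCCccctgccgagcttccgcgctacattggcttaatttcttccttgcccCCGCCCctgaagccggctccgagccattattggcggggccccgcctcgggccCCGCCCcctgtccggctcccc
SDC3: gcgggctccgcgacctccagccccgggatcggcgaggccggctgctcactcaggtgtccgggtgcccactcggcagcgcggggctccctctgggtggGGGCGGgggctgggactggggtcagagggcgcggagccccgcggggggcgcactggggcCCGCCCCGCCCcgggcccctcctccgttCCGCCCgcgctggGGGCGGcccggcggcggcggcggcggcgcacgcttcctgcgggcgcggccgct

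The GC box was found 2 times for GPC4, 8 times for SDC4, 3 times for GPC2 and 5 times for SDC3, with overlapping matches counted. At least 1 match stood in 7 of the 8 members with an entry, and in 42.6% of all 35116 windows of this length. All 4 windows were rich in G and C (76.0%, 73.6%, 66.8% and 83.6%), against a median of 58.0% of all windows. CCAAT was found in the GPC2 window (2 matches) and in 32% of all windows. TATAAA stood in the windows of GPC5 and GPC6 and in 10.7% of all windows. The TEAD motif GGAATG, the AP-1 motif TGANTCA and the E-box CACGTG had no match in any of the 8 members with an entry, against 11.9%, 6.57% and 6.34% of all windows. Both strands were searched, and none of these motifs contains another.

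Transcript usage was examined for the 7 members with more than 1 transcript and a mean of at least 50 counts. The main transcript held 84.7% to 89.8% of the TPM of GPC1, 83.7% to 89.8% of GPC2, 93.5% to 99.7% of GPC3 and 94.5% to 96.3% of SDC3. GPC6 was carried by 1 of its 2 transcripts. SDC1-201 held 61.0% to 77.2% of SDC1, and SDC2-201 held 50.5% to 60.8% of SDC2, with the lowest value of both in VN replicate 1.

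An exact permutation test over all 560 assignments of the libraries to the substrates, one-sided by construction, gave p of 0.289 or more for each of the 7 (smallest adjusted p = 0.892, where the design allows a p of 0.00357). For GPC6 the outcome was fixed in advance, since its main transcript held 100% in every library. None of the 7 had an unadjusted p under 0.05 with all libraries. With 1 library left out at a time, the lowest unadjusted p of GPC1, GPC2 and SDC3 was under 0.05. Some of those runs kept a single Matrigel library. Some pairs of substrates did not overlap: GPC1-201 was at 89.3% and 89.7% on Matrigel and at 86.0% to 87.6% on VN, GPC2-201 was at 84.6% and 85.3% on Matrigel and at 87.3% to 87.9% on VNP2, and SDC3-202 was at 94.6% to 94.9% on VN and at 95.5% to 95.7% on VNP2. How often such pairs arise over all genes was not computed, so no difference in transcript usage is read from them.

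**Figure D4:**
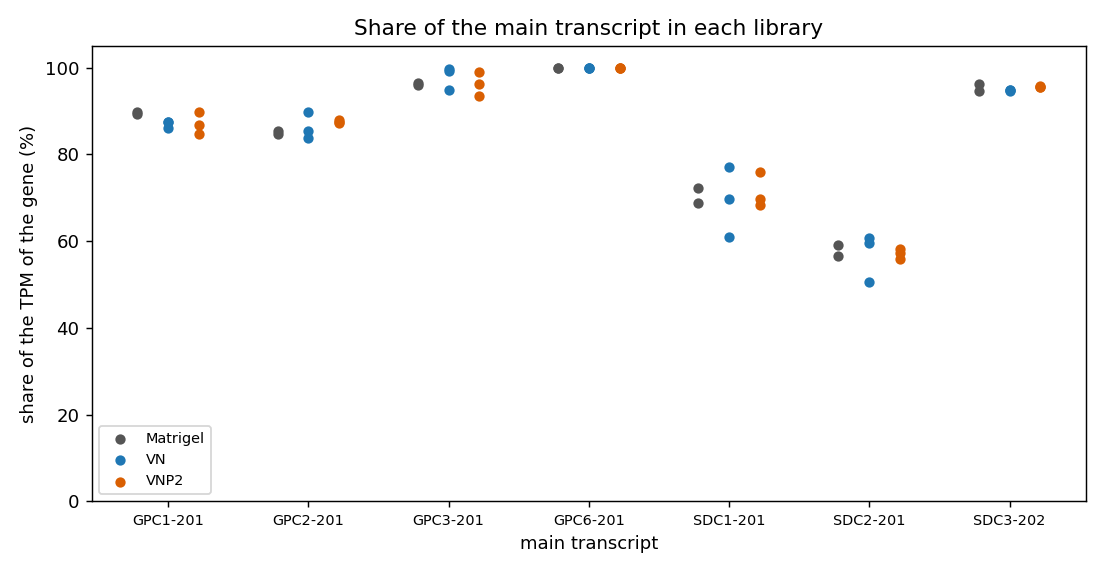
Share of the TPM of each gene that its main transcript held, in percent on an axis from 0, with 1 point per library (2 Matrigel, 3 VN, 3 VNP2). Every gene has substrates whose libraries overlap, and SDC1-201 and SDC2-201 have the widest spread between libraries.

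The genes with the most similar profile over the 8 libraries were sought among 12995 others whose normalized counts averaged 100 or more, by the root mean square distance of mean-centred log2 CPM (counts scaled to library size). GPC4 lay nearest to LIMCH1 (distance 0.0384) and ATF3 (0.055). SDC4 lay nearest to TUFT1 (0.0512) and SLC7A5 (0.0536), and SDC2 to NXPH2 (0.0439) and SYNM (0.0448). The distances of the members with smaller changes were shorter. GPC2 was nearest to APH1B (0.0167) and ZNF197 (0.0239), GPC3 to LRRC3 (0.0134) and C6orf106 (0.0166), GPC6 to PSMD12 (0.0236) and EIF3M (0.0246), and SDC3 to SREBF2 (0.0188) and CASKIN2 (0.0195).

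Genes that build, trim and use the heparan sulfate chains were followed in lists of their own. As for the members, their calls stand beside those of all tested genes, of which 5.66% rose and 9.6% fell on VN, 7.44% rose and 9.13% fell on VNP2, and 3.09% were higher and 2.01% lower on VNP2 than on VN. Most counts below are of a few genes, so that 1 call more or less moves a share by several percentage points, and nothing particular to a list is read from them. The 6 enzymes of the linkage region, which start the chain on the core protein, were all tested and none was called in any pair by edgeR or DESeq2; at an unadjusted p under 0.05, 3 were lower on VN against Matrigel, 1 was higher on VNP2 against VN and 0 differed on VNP2 against Matrigel. Of 20 tested enzymes that extend and sulfate the chain, 2 rose and 3 fell on VN, while 5 rose and 2 fell on VNP2 (list medians -0.06 and -0.02). The count furthest above the background, the 5 that rose on VNP2, was 3 by DESeq2. Among those called HS3ST5, a 3-O-sulfotransferase, fell most, from a mean of 63.4 normalized counts on Matrigel to 22.2 on VN (log2 fold change -1.51, adjusted p = 0.0189) and 17.5 on VNP2 (-1.84, adjusted p = 0.00624). HS3ST4, of the same family, rose on VNP2 from 194 to 363 (0.90, adjusted p = 0.000445), where its value on VN was 0.06 (adjusted p = 0.768), and was higher on VNP2 than on VN (0.84, adjusted p = 0.000991). NDST3, which removes acetyl groups and adds sulfate, rose on VN (0.38, adjusted p = 0.0263) and on VNP2 (0.61, adjusted p = 0.00175).

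Among the 4 enzymes that edit the finished chain, SULF2, which removes 6-O-sulfate outside the cell, fell from 7671 normalized counts to 5234 on VN (-0.55, adjusted p = 5.09e-06) and to 5194 on VNP2 (-0.56, adjusted p = 3.00e-06). SULF1, its close relative, rose on VNP2 (0.16, adjusted p = 0.0119), with 0.08 on VN (adjusted p = 0.159). HPSE and HPSE2 were not called. The list medians were -0.19 and 0.05.

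Of 10 tested genes for release and processing of the core proteins, 3 were lower on VN and 4 on VNP2, and none was higher (edgeR and DESeq2, 0 also at an unadjusted p under 0.05), with medians of -0.12 and -0.18. The background, given above, is 9.6% and 9.13% for lower genes and 5.66% and 7.44% for higher genes. TIMP3, an inhibitor of the proteases that shed syndecans, fell by 0.64 on VN (adjusted p = 4.33e-05) and by 0.64 on VNP2 (adjusted p = 2.91e-05). FURIN, a convertase that cleaves glypicans, fell by 0.30 on VN (adjusted p = 0.00295) and by 0.36 on VNP2 (adjusted p = 0.000651). PCSK5, of the same family, fell by 0.28 on VN (adjusted p = 0.0161) and by 0.55 on VNP2 (adjusted p = 0.000197), and was lower on VNP2 than on VN (-0.28, adjusted p = 0.0223).

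Of 15 partners of the syndecan tail, 5 fell and 1 rose on VN, while 6 fell and 1 rose on VNP2 (medians -0.08 and -0.14). The 1 that rose is near the background of 5.66% and 7.44%, and the genes that fell are above that of 9.6% and 9.13%. PRKCA, which encodes the kinase that SDC4 binds, fell by 0.54 on VN (adjusted p = 0.000596) and by 0.45 on VNP2 (adjusted p = 0.00164). EZR, a linker of membrane proteins to actin, fell by 0.51 on VN (adjusted p = 1.17e-05) and by 0.54 on VNP2 (adjusted p = 4.51e-06), and ARRB1, an arrestin, by 0.51 on VN and 0.45 on VNP2 (adjusted p = 0.00122 and 0.00206). Between VNP2 and VN none was called by edgeR or DESeq2, with 1 higher and 0 lower at an unadjusted p under 0.05.

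Of 17 partners and receptors of glypicans, 2 rose and 3 fell on VN, 4 rose and 1 fell on VNP2, and 4 were higher on VNP2 than on VN, where 3.09% of all genes were (medians 0.02 on VN and 0.09 on VNP2). Against Matrigel, 5.66% of all tested genes rose and 9.6% fell on VN, and 7.44% rose and 9.13% fell on VNP2. By DESeq2, 4 genes of the list fell on VN, and 5 rose and 2 fell on VNP2. LRRTM3, a synaptic protein that binds heparan sulfate, rose from 56.1 normalized counts to 127.5 on VN (1.18, adjusted p = 0.000874) and 223 on VNP2 (1.99, adjusted p = 1.48e-05), and was higher on VNP2 than on VN (0.80, adjusted p = 0.00481). SLIT1, a guidance cue that binds glypicans, rose on VNP2 from 8621 to 17749 (1.04, adjusted p = 1.88e-07) and was higher there than on VN (0.98, adjusted p = 2.08e-06), while on VN against Matrigel its value was 0.06 (adjusted p = 0.392). PTPRF, a receptor phosphatase, fell by 0.33 on VN (adjusted p = 0.000589) and by 0.31 on VNP2 (adjusted p = 0.000691).

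Of 22 tested growth factors that bind heparan sulfate, 8 fell and 2 rose on VN, while 9 fell and 3 rose on VNP2, with medians of -0.28 and -0.28 where all genes had 0.00. Of all genes 9.6% and 9.13% fell and 5.66% and 7.44% rose. PDGFB fell from 525 normalized counts on Matrigel to 118 on VN (-2.15, adjusted p = 2.31e-05) and 141 on VNP2 (-1.90, adjusted p = 3.79e-05). HBEGF fell from 708 to 215 (-1.72, adjusted p = 8.52e-07) and 180 (-1.97, adjusted p = 2.50e-07). CXCL12, a chemokine, rose on VNP2 (0.69, adjusted p = 8.19e-05) and was higher there than on VN (0.88, adjusted p = 4.52e-05), where its value against Matrigel was -0.19 (adjusted p = 0.105). BMP4 fell by 0.60 on VN (adjusted p = 0.00848) and by 1.48 on VNP2 (adjusted p = 2.20e-05), and was lower on VNP2 than on VN (-0.88, adjusted p = 0.00185).

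Among 9 tested heparan sulfate proteoglycans outside both families, 2 were lower and none higher on VN (1 higher at an unadjusted p under 0.05, 0 by DESeq2), and 2 lower and 2 higher on VNP2 (medians 0.02 and 0.06). The background is 9.6% lower and 5.66% higher on VN, and 9.13% lower and 7.44% higher on VNP2. HSPG2, the basement membrane proteoglycan perlecan, fell by 0.57 on VN (adjusted p = 3.54e-05) and by 0.70 on VNP2 (adjusted p = 5.48e-06). SPOCK1, a secreted proteoglycan, fell by 0.55 and 0.88 (adjusted p = 0.000145 and 3.59e-06) and was lower on VNP2 than on VN (-0.33, adjusted p = 0.00562). TGFBR3, the co-receptor betaglycan, rose on VNP2 (0.45, adjusted p = 0.00961) and was higher there than on VN (0.44, adjusted p = 0.0161), where its value against Matrigel was 0.02 (adjusted p = 0.930).

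Of the 35 changes by which genes of these lists were chosen for naming, 29 were called in every alternative run and 6 were not, with 0 changes of sign. The 6 were NDST3 on VN (lost in 5 alternatives), HS3ST5 on VN and on VNP2 (both lost without Matrigel replicate 3, adjusted p = 0.180 and 0.0830), SULF1 on VNP2 (lost in 2), and PCSK5 and TGFBR3 on VNP2 against VN (lost in 4 and 3).

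**Figure D5:**
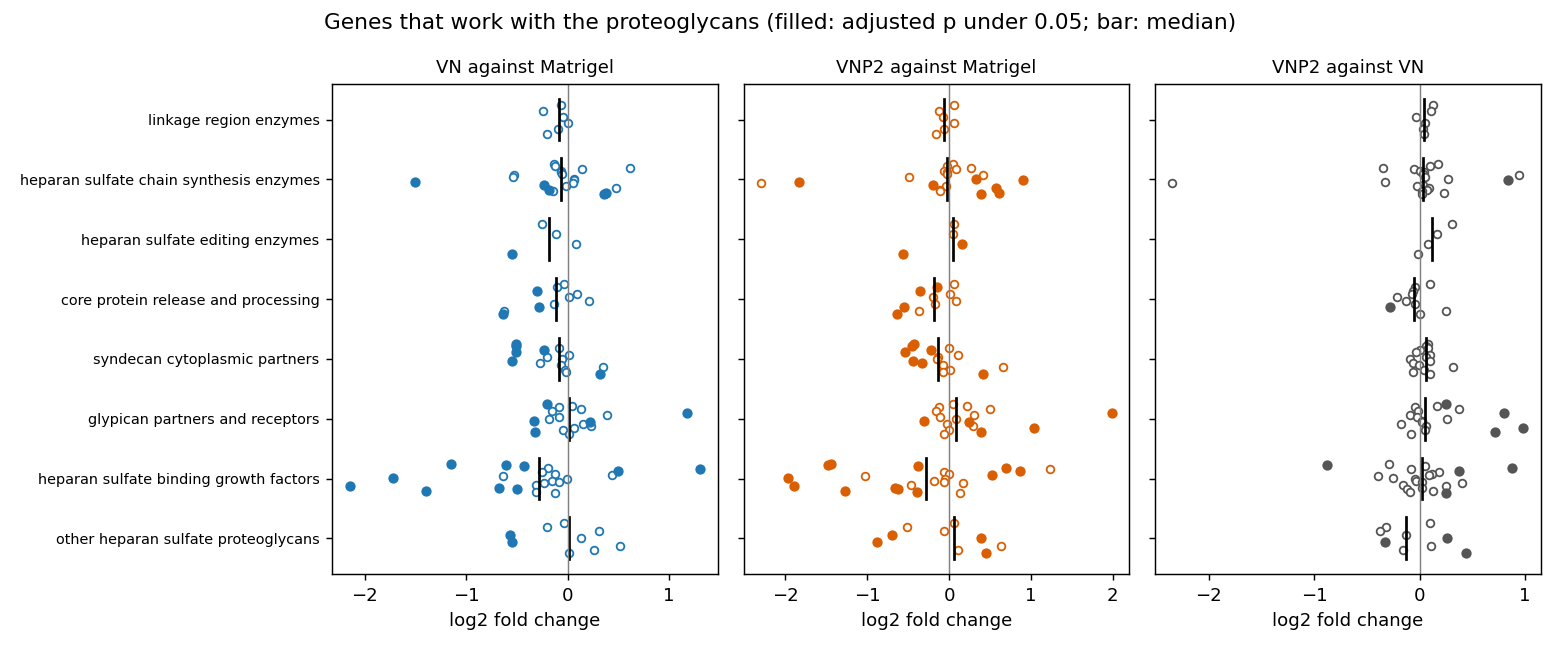
Log2 fold change of each tested gene of 8 lists around heparan sulfate for the 3 pairs of substrates, with filled points for an adjusted p under 0.05 and a black bar at the median of each list. The growth factors have the lowest medians from Matrigel, -0.28 on VN and -0.28 on VNP2.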

How the data were processed

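OPCs derived from H9 cells were sequenced as stranded polyA RNA on Matrigel, VN and VNP2 (2, 3 and 3 libraries). According to the labels' tool list and the methods, the authors trimmed reads with Trim Galore and ran Salmon (version not given in the sources used here) on GENCODE transcripts of GRCh38.p13, and the deposited estimated counts and TPM are Salmon's values per transcript. The deposited table of normalized counts is a signal that the authors made with tximport and DESeq2 1.27.12; for the members the normalized counts used here divided by it gave 0.999 to 1.001 in all but GPC3 (0.9985 at the lowest).

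Transcripts were assigned to genes with GENCODE 29 (GRCh38), and estimated counts were summed per gene and rounded. They were fitted in edgeR 4.0.16 (R 4.3.3) with TMM and offsets for transcript length, after filterByExpr (minimum count 10, minimum total 15), which kept 18201 genes and all 10 members. The fit held all 8 libraries without a replicate block. SE is the log2 fold change divided by the square root of F, and intervals use the total degrees of freedom of the fit. Counting error limits genes with few counts such as GPC5. The SE of GPC5 on VN against Matrigel was 0.695 with the length offset and 0.538 without it. Scripts were tested on simulated data.

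The members, gene lists and markers were chosen with earlier results of these data known. Named genes are all members, the 2 largest called changes of each list in each pair, and the 2 nearest profiles of each called member; HPSE, HPSE2 and the cell type markers named were added outside that rule after their values were seen, as were the choice of promoters and the marker sums without the most abundant marker. Alternatives were DESeq2 1.42.0, RLE, no length offset, no filter, a mean of at least 50 counts, a replicate block, limma 3.58.1 on the deposited table with pseudocounts of 1 and 8, the libraries of a pair only, and each library left out.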

Additional observations from a re-analysis of the deposited data

Results flagged for a closer look

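In the fit of all libraries, GPC4 was the only member whose change from Matrigel differed between VN and VNP2 by a test of that difference. Its log2 fold change of VNP2 against VN was -0.22 (SE 0.0338, edgeR adjusted p = 0.00455), with all 3 VNP2 libraries below all 3 VN libraries. That of SDC4 was of similar size and not called (-0.20, SE 0.0822, edgeR adjusted p = 0.206). Without VN replicate 1, GPC6 and SDC3 were called as well as GPC4. The groups held 2 or 3 libraries, too few to test single libraries as outliers.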

How the results depend on the processing

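GPC4, SDC2 and SDC4 were called lower than on Matrigel, on VN and on VNP2, in every alternative run, and GPC4 was called lower on VNP2 than on VN in every one. Of 238 refits of called changes, 220 kept the call, 18 lost it and 0 changed sign. With 1 library left out at a time, the members called numbered 4 to 7 across the substrates, 3 to 7 on VN against Matrigel, 5 to 7 on VNP2 against Matrigel and 1 to 3 on VNP2 against VN. The lowest counts came without a Matrigel library, where the remaining one is assumed to vary like the other groups (4 across without replicate 2 or 3, 3 on VN without replicate 2), and the 3 on VNP2 against VN came without VN replicate 1.

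Values that changed sign belonged to changes that were not called. For GPC1 on VNP2 against Matrigel they were -0.0075 with no length offset, -0.012 with the replicate block and -0.0056 to 0.0201 with libraries left out. For GPC2 on VNP2 against VN they were 0.026 with no length offset and -0.0263 to 0.0251 with libraries left out, and for GPC3 -0.0099 to 0.0356. For SDC1 on VNP2 against Matrigel they ran from -0.12 to 0.0192. For GPC5 they were -0.098 (no length offset) and -0.38 to 1.19 (libraries left out) on VNP2 against Matrigel, and on VNP2 against VN -0.17 and -0.042 (limma, pseudocounts 1 and 8), -0.33 (no length offset), -0.048 (replicate block) and -0.94 to 0.64 (libraries left out). The cause was not tested.

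Same-numbered libraries deviated from their group means with correlations of -0.112 to 0.140, so the numbers were not taken as pairs. With the replicate block the members called were 7 across, 6 on VN, 7 on VNP2 and 1 on VNP2 against VN, as without it. Only 2 Matrigel libraries limit every comparison with Matrigel.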
